A study of Mus musculus with 19 samples.

Results

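The cell division genes are 42 mouse genes that were chosen by their function, with earlier results of these data known. They hold the cyclins and kinases that drive the cell cycle, the enzymes that copy DNA and supply its building blocks, and the proteins that separate the chromosomes. Of the 42 genes, 40 had a named probe, with 63 probes in all out of 24048 on the array. A single probe was carried by 26 of these genes, and no gene had more than 4. Mki67 and Ccnb1 had no named probe and were not analysed here.

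The 19 arrays were Illumina mouse BeadChips hybridised with RNA of liver, spleen and heart from male BALB/c mice aged 12 weeks. All mice had eaten an atherogenic diet, which is high in fat and contains cholesterol, for 6 weeks. In the AD + OPP group the drink was oil palm phenolics (OPP), a water-soluble extract of the oil palm fruit, at 1500 ppm of gallic acid equivalents, with 3 arrays in each organ. In the AD + DW group it was distilled water, with 4 liver, 3 spleen and 3 heart arrays. Mice on a normal diet were not analysed here, so the values below describe OPP on top of the diet and not the diet itself. The mice shared cages, the labels name no cage, the RNA had been selected for integrity and the arrays for lying close to their group, and no label ties an array to a mouse. P-values therefore measure only the spread between these arrays.

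A dividing cell first commits itself in G1 phase, when D-type cyclins switch on their kinases. It then copies its DNA with the MCM helicase and the sliding clamp PCNA, and finally enters mitosis under CDK1 and Polo-like and Aurora kinases. Most of the genes involved are silent in resting cells and are switched on together, the replication genes by E2F factors and the mitotic genes by the MuvB complex with B-MYB and FOXM1. In adult mice the spleen is a blood-forming organ with dividing red cell and myeloid precursors and lymphocytes. Liver cells and heart muscle cells seldom divide.

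A probe counted as detected on an array when its detection p-value was below 0.01. Between 24.4% and 31.5% of all probes were detected on an array, and replicate arrays of an organ correlated with r between 0.818 and 0.981. All 7 hepatocyte markers were tested in the liver, 5 of 6 heart muscle markers were tested in the heart, where Ryr2 was detected on no array, and 7 of 9 B cell markers were tested in the spleen. A spleen array, AD + DW replicate 2, stood apart on the cell division genes, and the spleen results are therefore also given without it. Another, AD + DW replicate 3, detected the fewest probes in the spleen (24.4%, against 30.1% to 31.3% on the others). The slope of its normalised on its unnormalised signal was 1.62, against 0.824 to 1 on the others. It was the highest of the 6 spleen arrays for 37.1% of all probes tested, against 10.6% for replicate 2.

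The spleen was the organ in which most cell division genes were detected. In the spleen 32 of 40 genes (80.0%) were detected on every array, against 6 of 40 in the liver and 6 of 40 in the heart. Over all named genes the shares were 27.6%, 27.4% and 31.2% in spleen, liver and heart. No spleen array detected 6 of the genes, no liver array 27 and no heart array 29.

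Each role followed this pattern to a different degree. All 11 replication and nucleotide supply genes met the criterion for testing in the spleen, namely detection on every array of the AD + OPP or the AD + DW group. In the liver 3 of them did (Mcm4, Pcna and Tk1) and in the heart 3 (Mcm4, Mcm7 and Pcna). Of 10 genes of mitotic entry and exit, 9 were tested in the spleen, 1 in the liver (Cdc25b, the phosphatase that activates CDK1) and 0 in the heart. Of 7 spindle motor and bundling genes, 5 were tested in the spleen, 0 in the liver and 1 in the heart (Stmn1, which destabilises microtubules). Of 5 kinetochore and checkpoint genes, 3 were tested in the spleen, and in liver and heart 1, which was Cenpa, the histone that marks the centromere. The 5 G1 genes were all tested in the spleen, with 2 in the liver (Ccnd1 and Cdk4) and 2 in the heart (Ccnd1 and Ccnd2).

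In total 24 genes were tested in the spleen and in neither of the other organs, Cdk1, Plk1, Aurka, Aurkb, Top2a and Bub1b among them. A group of 4 genes, Ccnd1, Cenpa, Mcm4 and Pcna, was tested in all 3 organs. The 6 genes tested in no organ were Bub1, Ccnb2, Cenpe, Hmgb2, Kif11 and Kif20a, and their probes were detected on no spleen array either. For these genes the arrays give no level, and a probe that does not respond cannot be told apart from a low RNA level. A second Cdk1 probe, for example, was detected on no spleen array, while the tested Cdk1 probe had 492 to 842 units in spleens. In bulk tissue fewer dividing cells and less RNA per cell cannot be told apart either.

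For levels across organs, all 19 arrays were normalised together from the unnormalised signals, since the deposited normalisation had been made within each organ. A probe was tested when it was detected on every array of any group, and most of the 41 cell division probes tested came in through the spleen, where they were high, so their count is given as a description. At an adjusted p under 0.05 in limma, 39 of the 41 were higher in spleen than in liver and 1 was lower (78.6% of all 8989 probes called, 42.9% as higher and 35.7% as lower). Against the heart 39 were higher in the spleen and 1 was lower (76.6% of all probes called, 38.6% as higher and 38.0% as lower). With no detection filter, a setting chosen after seeing the data, 43 of all 63 cell division probes were higher in spleen than in liver and 1 was lower, against 20.0% and 17.3% of all 24048 probes. Against the heart 43 were higher in the spleen and 3 lower, against 18.0% and 17.9% of all probes. Among the 6 probes detected on every spleen and liver array, those of Cenpa (3.79), Mcm4 (3.68), Pcna (2.85), Tk1 (1.39) and Cdc25b (0.68) were higher in spleen on the log2 scale, and Ccnd1 did not pass, with 44.6% of all probes so detected called as higher and 34.7% as lower. Among the 6 detected on every spleen and heart array, those of Mcm4 (3.11), Stmn1 (2.69), Pcna (2.32), Cenpa (2.03) and Ccnd2 (0.33) were higher in spleen and Ccnd1 was lower, with 43.0% of all probes called as higher and 36.9% as lower. The unnormalised signals still contain the background of the array, which compresses differences, and levels are therefore also given after background correction with neqc.

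The probe of Nusap1, which bundles spindle microtubules, had the largest difference. After neqc its signal was 4139 to 5754 in spleens, 30.6 to 64.3 in livers, where no array detected it, and 36.2 to 60.6 in hearts, where again none did. Its log2 difference was 4.75 (SE 0.08, adjusted p = 9.04e-19) between spleen and liver and 4.73 (SE 0.09, adjusted p = 2.43e-18) between spleen and heart. Where the other organ lay below detection, the lowest detected signal of each array stood in for its level (or the signal of the probe, if higher). On that basis the spleen level after neqc was at least 51.7-fold that of the liver and at least 58.7-fold that of the heart.

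Prc1, which crosslinks microtubules between the separating chromosomes, had 1554 to 4157 units in spleens, against 28.9 to 39.2 in livers and 38.0 to 67.6 in hearts, with no detection outside the spleen. This was at least 31.6-fold higher in spleen than in liver and at least 35.9-fold higher than in heart. Plk1, the Polo-like kinase of mitosis, was at least 16.1-fold and at least 18.3-fold higher, and the brightest probe of Birc5 (survivin), a subunit of the Aurora B complex, at least 18.0-fold and at least 20.4-fold. The organs did not overlap for any of these genes. Mcm5, a subunit of the replicative helicase, had 2419 to 4518 units in spleens, 37.9 to 149.8 in livers and 46.2 to 79.5 in hearts, and its log2 difference was 4.19 (SE 0.14) against the liver and 4.13 (SE 0.14) against the heart before background correction.

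Mcm4, another helicase subunit, differed between spleen and liver by 3.68 on the log2 scale before correction and by 4.74 after neqc, and between spleen and heart by 3.11 and 3.71. Stmn1 differed between spleen and liver by 3.48 and 5.11, Tpx2, which activates Aurora A on the spindle, between spleen and heart by 2.87 and 4.39, and the brighter Mcm7 probe between spleen and heart by 2.80 and 4.05. Cenpa was detected on every array of the series. It had 3126 to 4773 units in spleens, 103 to 229 in livers and 661 to 1304 in hearts after neqc.

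Of the G1 genes, Ccnd1 and Cdk4 did not share this order. Ccnd1 encodes cyclin D1, which growth factor signals induce, and it was the member that was lower in spleen than in heart, by 0.98 on the log2 scale (SE 0.13, adjusted p = 1.35e-06). Its neqc signals were 77.4 to 396 in spleens, 127 to 341 in livers and 467 to 692 in hearts, so that hearts stood above both other organs while spleens and livers overlapped. Between spleen and liver its log2 difference was 0.06 (SE 0.12, adjusted p = 0.664). Cdk4, the kinase partner of D cyclins, was measured near background. One of its probes was higher in spleen than in liver by 0.43 (SE 0.09) and another lower by 0.15 (SE 0.06, adjusted p = 0.0292), so no direction can be given for this gene. Ccnd2 was 1.34 higher in spleen than in liver (SE 0.14) and 0.33 higher in spleen than in heart (SE 0.14, adjusted p = 0.0404). The tested probe of Ccnd3 was higher in spleen by 1.27 against the liver and 0.9 against the heart. That of Ccne1, cyclin E1, was higher by 1.31 and 1.4.

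Liver and heart differed for fewer members. Most of the 41 probes tested were detected on no array of either organ, so the count does not show that their levels were alike. In limma 4 of 41 probes were higher in liver and 7 were lower, with 71.2% of all probes called, 30.1% as higher and 41.0% as lower, and the 4 probes detected on every liver and heart array (Cenpa, Ccnd1, Mcm4 and Pcna) were all lower, against 43.0% of all such probes called as lower and 31.2% as higher. With no detection filter 5 of 63 were higher and 9 lower, against 14.2% and 18.7% of all probes. Cenpa was 1.76 lower in liver than in heart (SE 0.11, adjusted p = 1.13e-10), Ccnd1 1.04 lower (SE 0.12) and Ccnd2, cyclin D2, 1.01 lower (SE 0.14). Stmn1, Mcm4, Pcna and Ccnd3 were lower by 0.80, 0.57, 0.54 and 0.38. The gene that was higher in liver by more than 0.5 was Tk1, the thymidine kinase of the salvage pathway, with 0.93 (SE 0.13, adjusted p = 2.99e-06). No heart array detected its brighter probe, which had 113 to 238 units in livers after neqc, at least 1.83-fold the heart level. The other probes called higher in liver were the second Tk1 probe, a Tyms probe that no liver or heart array detected, and a Cdk4 probe.

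**Figure D1:**
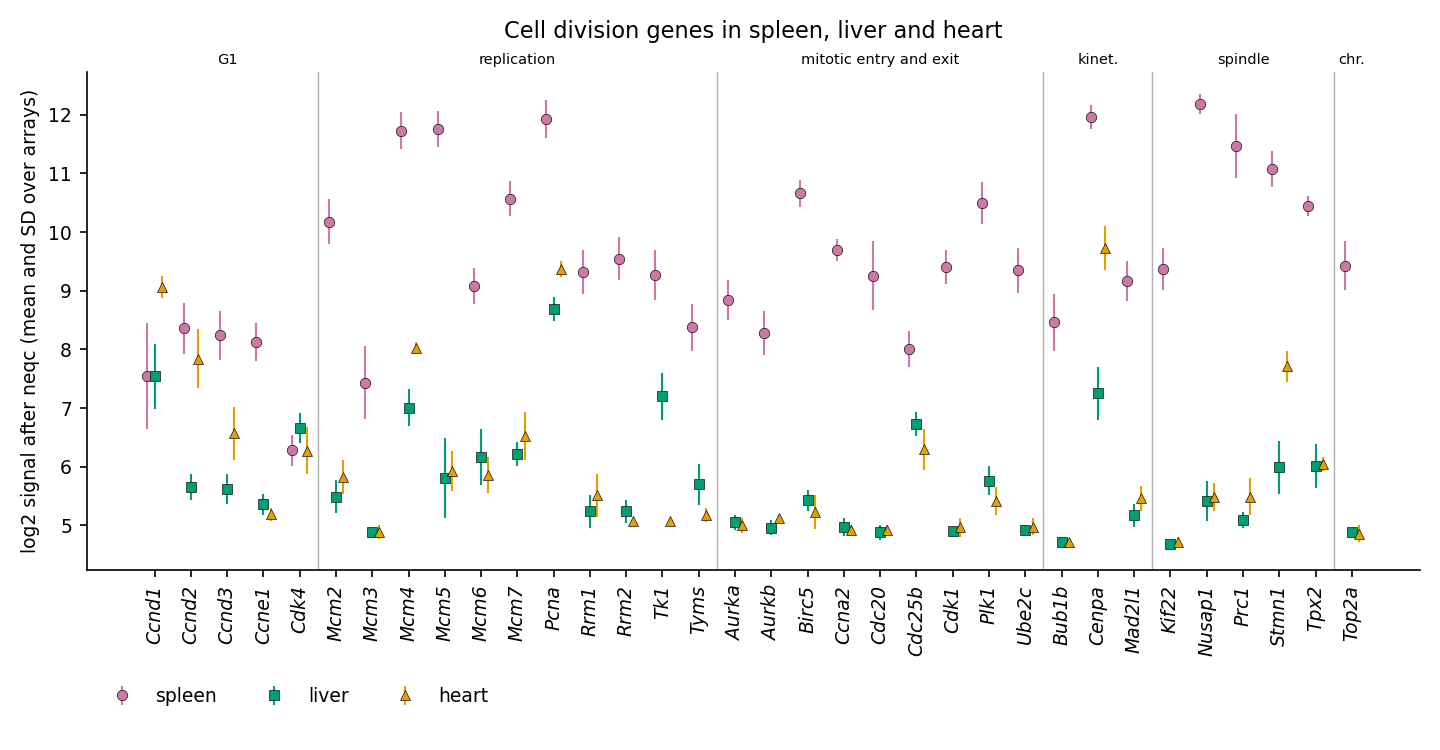
Each point is the mean log2 signal after neqc, over 6 spleen (circles), 7 liver (squares) or 6 heart (triangles) arrays, of the brightest tested probe of each of 34 cell division genes, with bars for the SD, and genes are grouped by role. Spleen points lie above both other organs for nearly all genes, with Ccnd1, highest in heart, and Cdk4 as the exceptions, and points near 5 are mostly probes not detected in that organ.

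Promoter sequences are described because most of the genes were detected in the same organ. Windows from 250 bases before to 50 bases after the start of the gene were taken from RefSeq on GRCm38.p6, and 34 of the 42 genes matched, Mki67 and Ccnb1 among them. Both strands were searched for CCAAT, the box bound by NF-Y, for the cell cycle homology region (CHR) as TTTGAA or TTCGAA, the element of MuvB, and for E2F sites as TTTCCCGC, TTTCGCGC, TTTGCCGC or TTTGGCGC. The CCAAT box was present in 27 of 34 members (79.4%), against 41.1% of all genes of the table, and the CHR in 18 (52.9%), against 21.7%. An E2F site was present in 5 (14.7%), against 2.6%. All 18 members with a CHR also held a CCAAT box (52.9%), against 8.61% of all genes. By role, the CHR was found in 7 of 9 genes of mitotic entry and exit and 2 of 10 replication genes, and an E2F site in 1 of 9 and 4 of 10. A match is a description of letters and not of binding, and E2F and CHR sites of other spelling were not searched.

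The 200 bases before the start are printed for 4 genes, in the direction of the gene, with matches in capitals. Cdk1, the kinase that starts mitosis, is shown because it held all 3 motifs, Cdc20, which activates the ubiquitin ligase of anaphase, and Bub1b, a brake on that step, because they held the CCAAT and CHR pair and are described in the spleen below, and Mcm5 because it held CCAAT and E2F but no CHR. In Mcm5 a pair of E2F matches on opposite strands overlap. The windows lie at chr10:69352913-69353112 on the minus strand for Cdk1, chr4:118437344-118437543 on the minus strand for Cdc20, chr2:118598011-118598210 on the plus strand for Bub1b and chr8:75109309-75109508 on the plus strand for Mcm5.
Cdk1: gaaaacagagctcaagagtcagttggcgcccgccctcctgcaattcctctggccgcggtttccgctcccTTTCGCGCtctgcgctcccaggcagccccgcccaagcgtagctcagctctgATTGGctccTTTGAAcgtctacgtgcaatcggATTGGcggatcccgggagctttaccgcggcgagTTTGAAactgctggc
Cdc20: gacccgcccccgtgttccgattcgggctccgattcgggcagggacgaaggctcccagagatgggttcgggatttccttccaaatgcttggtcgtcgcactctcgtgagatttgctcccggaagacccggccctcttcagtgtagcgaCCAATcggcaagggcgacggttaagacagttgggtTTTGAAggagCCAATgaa
Bub1b: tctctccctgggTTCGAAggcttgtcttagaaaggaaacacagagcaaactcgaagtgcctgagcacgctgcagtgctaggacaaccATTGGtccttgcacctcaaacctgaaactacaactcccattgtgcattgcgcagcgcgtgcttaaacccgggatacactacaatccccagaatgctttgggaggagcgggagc
Mcm5: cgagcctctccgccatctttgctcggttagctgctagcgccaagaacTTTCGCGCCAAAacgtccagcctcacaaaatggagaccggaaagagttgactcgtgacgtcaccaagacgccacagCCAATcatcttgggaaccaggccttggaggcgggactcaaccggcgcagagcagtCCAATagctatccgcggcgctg

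The question of the study within each organ was whether OPP changed expression on the atherogenic diet. In the spleen no cell division gene passed the test, and the set was split between both directions. AD + OPP spleens had the higher mean for 19 of 34 genes and the lower mean for 15. The median over these genes was 0.06 on the log2 scale, and over all 5120 named genes tested it was −0.06. Of those 5120 genes, 2188 were higher and 2932 lower. Of 40 probes 0 passed an adjusted p of 0.05 in limma (0 of all 6664 probes, 0.0%), and 2 had an unadjusted p under 0.05, against 16.5% of all probes. The groups did not overlap for 2 of 40 probes (5.0%), 1 above and 1 below, against 23.5% of all probes, of which 11.1% lay above and 12.3% below.

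Ccnd1 had the smallest p. Its normalised signal was 110.4, 126 and 67.5 in AD + OPP spleens and 389, 238 and 364 in AD + DW spleens. All AD + OPP spleens lay below all AD + DW spleens, and all 6 arrays detected the probe. The log2 fold change was −1.72 (SE 0.30), a 3.29-fold lower signal, with an unadjusted p of 0.00074 and an adjusted p of 0.0712 in limma. The direction held in every alternative, the gene passed the threshold in 7 of 18, with adjusted p from 0.00706 to 0.412, and the log2 fold change was −0.65 with median scaling and −0.84 with quantile normalisation of the unnormalised signals. The other 3 probes of Ccnd1 were detected on no spleen array. The OPP effect on Ccnd1 was 0.77 more negative on the log2 scale in spleen than in heart (SE 0.25, adjusted p = 0.17) and 0.49 more negative than in liver (SE 0.24, adjusted p = 0.379), which did not pass the threshold.

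Bub1b, a kinase-like protein of the spindle checkpoint that delays anaphase, was the member with a non-overlapping higher signal. It had 448, 461 and 417 units in AD + OPP spleens and 247, 384 and 249.8 units in AD + DW spleens. The log2 fold change was 0.62 (SE 0.21), with an adjusted p of 0.212 in limma, and between 0.0203 (all 19 arrays in 1 fit) and 0.643 over the alternatives.

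Plk1 and Cdc20 showed the same arrangement of arrays without separating the groups. Plk1 had 1443, 1585 and 1437 units in AD + OPP spleens and 1031, 1440.5 and 1032 units in AD + DW spleens, a log2 fold change of 0.37 (SE 0.19, adjusted p = 0.396). Cdc20 had 896, 698 and 637 units in AD + OPP spleens and 366, 786 and 418 units in AD + DW spleens (log2 fold change 0.58, SE 0.31, adjusted p = 0.424). In both genes AD + DW replicate 2 lay among the AD + OPP arrays and the other AD + DW arrays lay below them. Cdk1 had 492, 723 and 679 units in AD + OPP spleens and 575, 842 and 720.0 units in AD + DW spleens, with a log2 fold change of −0.18 (SE 0.23). Top2a, the topoisomerase that untangles chromosomes, had 514, 922 and 786 units in AD + OPP spleens and 488, 781 and 648 units in AD + DW spleens (0.20, SE 0.28). For Cdk1 and Top2a the ranges of the groups overlapped. Of 9 genes of mitotic entry and exit 5 were higher and 4 lower.

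The replication genes lay in between. Pcna, the clamp that holds DNA polymerase on its template, had 2837, 2946 and 2406 units in AD + OPP spleens and 2894, 4341 and 3660.1 units in AD + DW spleens (log2 fold change −0.40, SE 0.20, adjusted p = 0.389). Mcm5 had 3234, 3006 and 2499.8 units in AD + OPP spleens and 2544, 3461 and 2256 units in AD + DW spleens, and Mcm2 had 1268, 1203 and 868 units in AD + OPP spleens and 896, 1449 and 897 units in AD + DW spleens. Of the 11 genes 5 were higher and 6 lower (median 0.0), and the smallest adjusted p was 0.389. Cdc25b had 269, 229 and 182 units in AD + OPP spleens and 243, 319 and 343 units in AD + DW spleens (−0.42, SE 0.22, adjusted p = 0.409).

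The remaining G1 genes did not follow Ccnd1. Ccnd2 had 303, 294 and 352 units in AD + OPP spleens and 532, 299.9 and 252 units in AD + DW spleens, and Ccnd3, cyclin D3, had 357, 298 and 363 units in AD + OPP spleens and 179, 389 and 298 units in AD + DW spleens. Both genes overlapped between the groups. Cdk4 had a log2 fold change of 1.07 (SE 0.62, adjusted p = 0.45) from a probe at 119, 90.9 and 93.6 units in AD + OPP spleens and 65.0, 100.4 and 16.6 units in AD + DW spleens, which had entered the test through its detection on 3 of 3 AD + OPP arrays, against 1 of 3 AD + DW arrays. Of the 40 probes 38 were detected on every spleen array.

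Genes with several tested probes differed in how far their probes went together. The 3 Birc5 probes gave log2 fold changes between −0.56 and −0.01, and the least of these came from 348, 895 and 1032 units in AD + OPP spleens and 867, 952 and 1241 units in AD + DW spleens. The Tyms probes gave −0.30 and −0.27, and the Tk1 probes −0.44 and −0.13. The probe at −0.44 ranged between 71.8 and 323 units within the AD + OPP group.

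**Figure D2:**
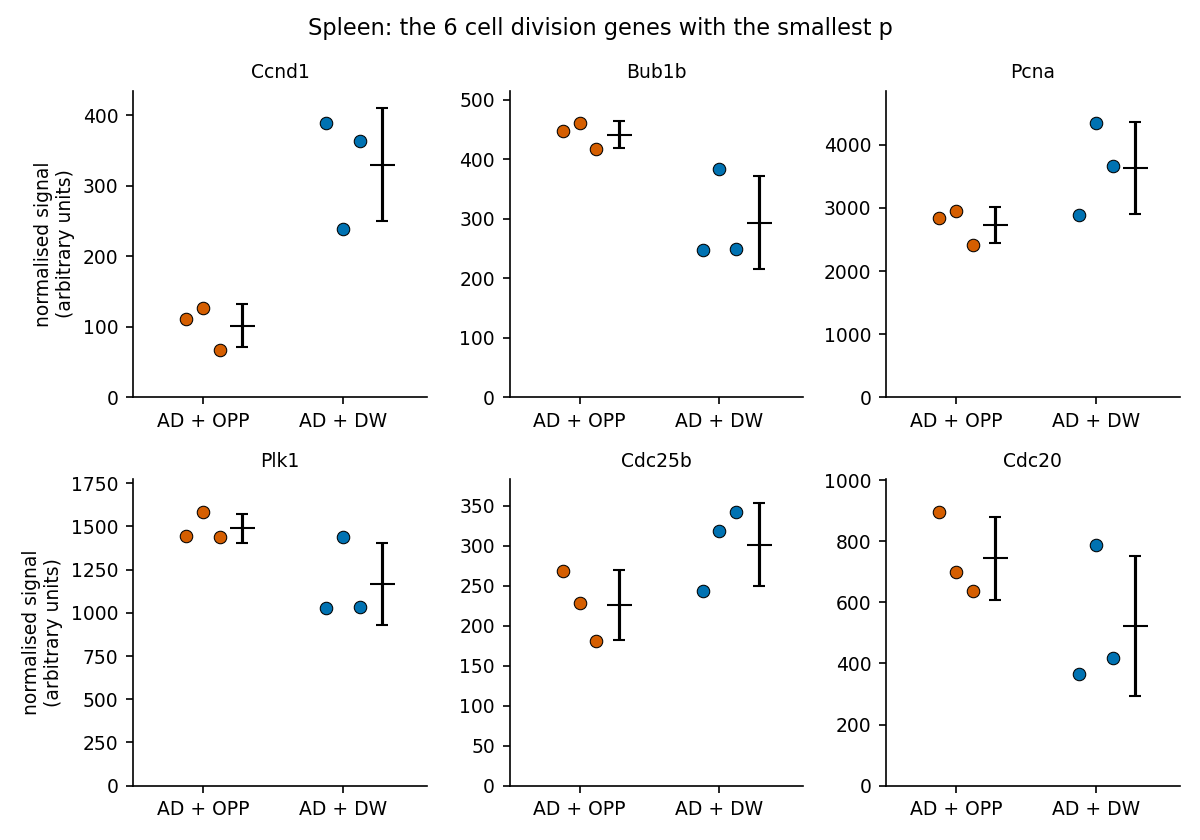
Normalised signal in arbitrary units of the 6 cell division genes with the smallest p in the spleen, for each AD + OPP (left) and AD + DW (right) array, with the mean and SD of 3 arrays. Ccnd1 and Bub1b are separated between the groups, and 1 AD + DW array lies with the AD + OPP arrays for Plk1 and Cdc20.

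**Figure D3:**
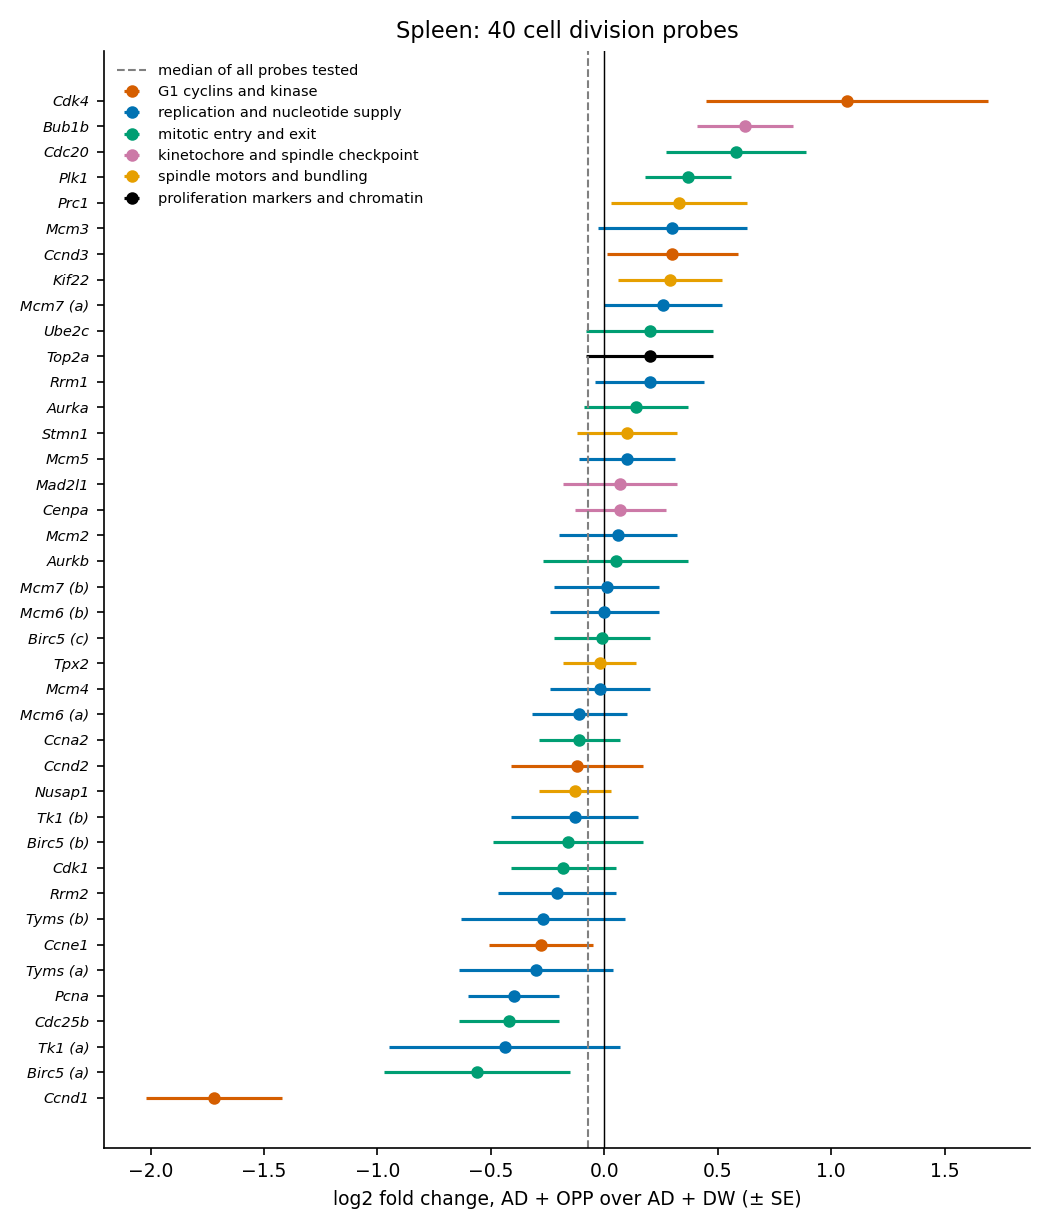
Log2 fold change of AD + OPP over AD + DW with its SE for the 40 cell division probes tested in the spleen, coloured by role, with letters for several probes of a gene and a dashed line at the median of all probes tested (−0.07). Most probes lie within 0.5 of 0, and Ccnd1 at −1.72 and Cdk4 at 1.07 lie farthest out.

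The spread of the AD + DW group came largely from replicate 2. That array had the highest signal of the 6 spleen arrays for 25 of the 40 cell division probes (62.5%), against 10.6% of all probes tested, and AD + DW replicate 1 had the lowest for 16, against 22.4% of all probes. The mean log2 signal over the 34 genes was 9.49, 9.52 and 9.44 in AD + OPP spleens and 9.24, 9.80 and 9.32 in AD + DW spleens. AD + OPP arrays were close to each other and lay between AD + DW replicate 2 and the other AD + DW arrays. Per role the same array was highest of the 6 for the G1 genes (8.01), replication genes (10.22), mitotic entry and exit (9.55), the kinetochore genes (10.01) and also the spindle genes.

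AD + DW replicate 2 was singled out by its level of these same genes, so the fit without it is a description and not a test. Without it, 26 of 40 probes were higher with OPP and 14 lower. Their median log2 fold change was 0.18, against −0.10 for all probes, and 9 had an unadjusted p under 0.05, against 21.2% of all 6810 probes. An adjusted p under 0.05 was reached by 2.47% of all probes. Of these 9, Ccnd1 was lower, with a log2 fold change of −1.94 (SE 0.31, adjusted p = 0.0418), and Bub1b (0.83), Cdc20 (0.91), Plk1 (0.53), Mcm3 (0.66), Cdk4 (1.61), Prc1 (0.63), Kif22 (0.50) and Rrm1 (0.46) were higher, at adjusted p from 0.0716 to 0.211. Of all probes 9.18% were higher at an unadjusted p under 0.05. The Cdk4 probe had entered the test through AD + OPP alone, where it was high. Without AD + DW replicate 1 in its place, 13 of 40 were higher and the median was −0.11, as it was for all probes. So the direction of the set in the spleen depended on which AD + DW array was used.

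The difference of the OPP effect between organs passed for no member with all arrays. The smallest adjusted p among 41 probes was 0.0908 between spleen and liver (Bub1b, 0.55, SE 0.16) and 0.17 between spleen and heart, with 2.26% and 1.5% of all probes called. Between liver and heart it was 1.0, with 0.0% called. At an unadjusted p under 0.05 there were 4, 4 and 0 of 41 members in these comparisons, against 14.3%, 11.9% and 4.09% of all probes. Spleen AD + DW replicate 2 had been singled out by its level of these same genes, so a fit without it is a description. In that fit 4 members (Cdc20, Bub1b, Plk1 and Prc1) had an adjusted p under 0.05 between spleen and liver, with 5.43% of all probes called, and 2 (Cdc20 and Bub1b) between spleen and heart, with 4.36%. The log2 differences of Cdc20 were 1.01 and 0.91 and those of Bub1b 0.72 and 0.67, more positive in spleen. No liver or heart array detected the tested probes of these 4 members, so no OPP effect on them was measured there. Their differences, also that of Bub1b with all arrays, set the spleen change against signals at background. Leaving out any other single array called 0 members.

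Other genes of the pathway also lay in both directions, with more of them higher than lower in the spleen. Among all 5120 named genes tested there, 2188 were higher and 2932 lower, with a median of −0.06. Of 31 other replication genes tested in the spleen 20 were higher and 11 lower, with a median of 0.03, and of 30 other mitosis genes 21 were higher and 9 lower, with a median of 0.08. None passed the threshold in limma, and 0 and 3 had an unadjusted p under 0.05, against 16.5% of all probes. The mitosis genes with the smallest p were Cdc25a, a phosphatase that activates cyclin-dependent kinases, at 364 ± 80.1 units in AD + OPP and 189.6 ± 50.8 units in AD + DW spleens (SD, n = 3 each, adjusted p = 0.126), and Kif2c, a kinesin that depolymerises microtubules, at 294 ± 52.4 and 172 ± 60.2 units in AD + OPP and AD + DW spleens (adjusted p = 0.206). In both the groups did not overlap, which held for 4 of the 30 mitosis genes (13.3%), against 23.5% of all probes. Of the replication genes, Rfc1, a subunit of the clamp loader, had a log2 fold change of 0.63 (SE 0.27) and Chaf1a, a histone chaperone, 0.97 (SE 0.64).

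Transcription factors of the cell cycle moved in both directions. Myb, a factor of blood progenitors, had 292 ± 48.4 units in AD + OPP and 118.5 ± 56.0 units in AD + DW spleens (SD, n = 3 each), a log2 fold change of 1.39 (SE 0.33, adjusted p = 0.0997). Tfdp2, a partner of E2F factors, had 638 ± 144 units in AD + OPP and 963 ± 119.6 units in AD + DW spleens, a log2 fold change of −0.61 (SE 0.21, adjusted p = 0.213). Of 8 such genes 3 were higher and 5 lower. Of 14 cell cycle brakes 6 were higher and 8 lower (median −0.07). Cdkn2d, an inhibitor of CDK4 and CDK6, had 751 ± 62.9 units in AD + OPP and 549 ± 87.0 units in AD + DW spleens (0.46, SE 0.18, adjusted p = 0.265), and Atm, the kinase of the response to DNA breaks, had a log2 fold change of −0.66 (SE 0.33). None of these genes passed the threshold.

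Markers of several blood cell types in the spleen lay in 1 direction within a list, though none passed the threshold in limma, and their part in the results above was not tested. All 13 neutrophil precursor markers were higher with OPP (median 2.10 on the log2 scale), and 11 of them (84.6%) did not overlap between the groups. Of all spleen probes tested 23.5% did not overlap, 11.1% above and 12.3% below. Their summed signal was 172273 to 188415 units in AD + OPP spleens and 54222 to 127045 units in AD + DW spleens, with the highest AD + DW value in replicate 2, the array that was also highest for the cell division genes. None of the 13 was undetected on all spleen arrays. Mpo, the myeloperoxidase of early granulocytes, had 26865 ± 3448 units in AD + OPP and 7512 ± 4196 units in AD + DW spleens (SD, n = 3 each, adjusted p = 0.0744), and Mmp8, a collagenase of neutrophil granules, had a log2 fold change of 2.54 (SE 0.37, adjusted p = 0.0712).

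Lymphocyte markers lay the other way, as did Ccnd1. All 7 B cell markers tested were lower with OPP (median −1.17), 6 of them without overlap (85.7%, against 23.5% of all probes). Their summed signal was 1803 to 2340.0 units in AD + OPP and 3799.8 to 5225 units in AD + DW spleens. Cr2 and Pax5 were detected on no spleen array. Fcer2a, the low-affinity IgE receptor CD23 of mature B cells, had a log2 fold change of −3.11 (SE 0.49) and Cd79b, a subunit of the B cell receptor, −1.17 (SE 0.18), both with an adjusted p of 0.0712. Of 7 T and natural killer cell markers 6 were lower and 1 higher, with a summed signal of 2390 to 2938 units in AD + OPP and 2915 to 4239 units in AD + DW spleens, and Cd4 and Cd5 on no array. The 1 higher gene was Nkg7, a granule protein of killer cells (1.29, SE 0.31), and Klrd1, a receptor of natural killer cells, had −1.43 (SE 0.30).

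Other cell types were less clear. All 11 red cell precursor markers were lower with OPP (median −0.35), 1 without overlap (9.09%, against 23.5% of all probes). Their summed signal was 101198 to 108048 units in AD + OPP and 117833 to 179664 units in AD + DW spleens, with Epb42 on no array. Slc4a1, the anion exchanger of the red cell membrane, had −0.49 (SE 0.17) and Car2, a carbonic anhydrase, −0.62 (SE 0.34). Of 5 macrophage markers 4 were lower (median −0.74), with 1927 to 2579 units in AD + OPP and 2821 to 4467 units in AD + DW spleens, led by Adgre1 (−0.93, SE 0.18) and Marco (−0.86, SE 0.24), with Clec4f and Vsig4 on no array. Of 5 megakaryocyte markers 4 were higher (median 0.66), with 6538 to 9363 units in AD + OPP and 6147 to 7358 units in AD + DW spleens, led by the platelet glycoproteins Gp5 (0.66, SE 0.20) and Gp1bb (0.96, SE 0.29). Of 5 germinal centre and plasma cell markers 3 were higher and 2 lower (median 0.02), with Jchain at −0.55 (SE 0.25) and Irf4 at −0.57 (SE 0.40).

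**Figure D4:**
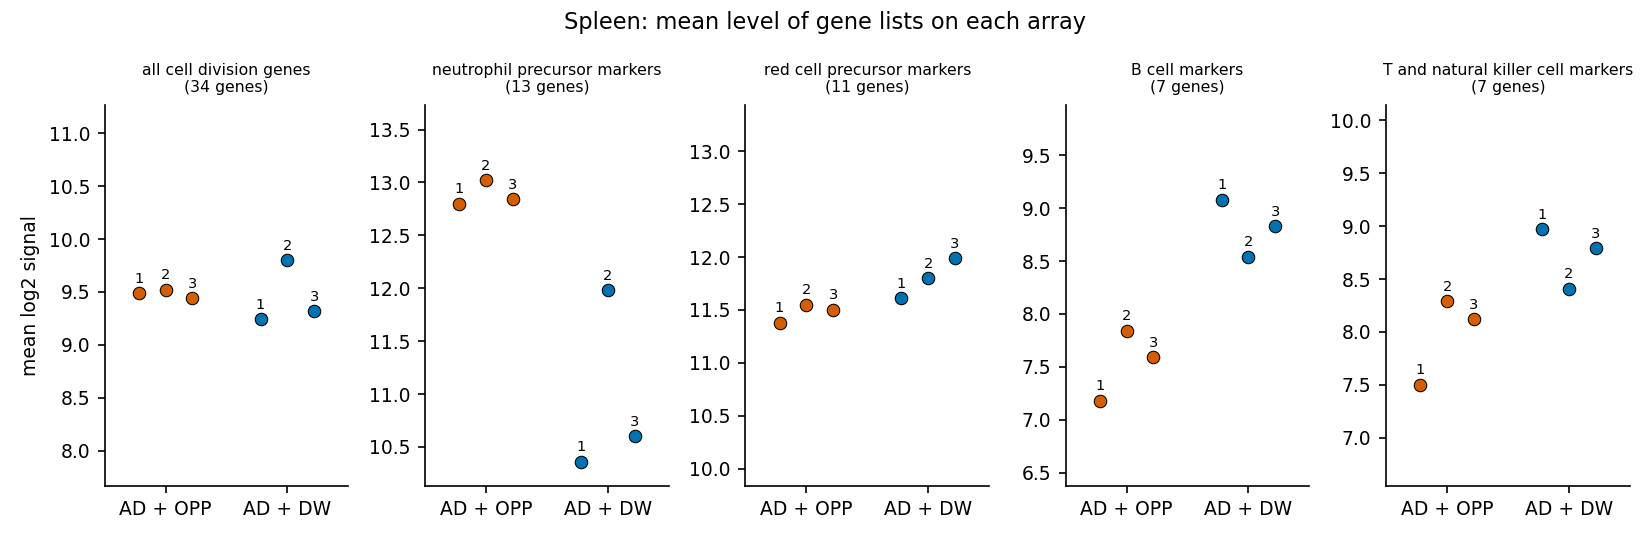
Mean log2 signal on each spleen array of the 34 cell division genes and of 4 marker lists, AD + OPP left and AD + DW right, with replicate numbers beside the points and a vertical axis of equal length in each panel. All 4 marker lists separate the groups, whereas AD + DW replicate 2 is the highest array for the cell division genes (9.80). The red cell list (AD + OPP up to 11.55, AD + DW from 11.61) and the T and natural killer cell list (up to 8.29, from 8.41) separate narrowly.

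In the liver 7 cell division genes were tested, and 5 of them were lower with OPP and 2 higher. The median log2 fold change was −0.22, against 0.0 for all 6007 probes. None passed an adjusted p of 0.05 in limma (0.0% of all probes), 1 of 7 had an unadjusted p under 0.05, against 8.24% of all probes, and 1 of 7 did not overlap between the groups (14.3%), below AD + DW, against 8.37% of all probes, of which 4.01% lay above and 4.36% below.

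That gene was Cenpa. It had 125, 137 and 102 units in AD + OPP livers and 209, 200.2, 266 and 207 units in AD + DW livers, all detected. The log2 fold change was −0.86 (SE 0.16), a 1.82-fold lower signal, with an unadjusted p of 0.000733 and an adjusted p of 0.417. It stayed between −0.95 and −0.74 when each array was left out in turn, and was −0.41 with median scaling and −0.37 with quantile normalisation of the unnormalised signals. Cenpa was 0.07 higher (SE 0.20) in AD + OPP than in AD + DW spleens, and the difference of these effects, from the fit of all 19 arrays normalised together, was 0.49 (SE 0.23) without passing the threshold.

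Ccnd1 was also lower in the liver, though not beyond its spread. It had 149.7, 162 and 186 units in AD + OPP livers and 345, 188, 418 and 167 units in AD + DW livers, a log2 fold change of −0.65 (SE 0.33, adjusted p = 0.611). AD + DW replicates 2 and 4 lay within or next to the AD + OPP range. Tk1 had 132, 129 and 168 units in AD + OPP livers and 178, 278, 178 and 132 units in AD + DW livers (−0.38, SE 0.25), and Pcna had 568, 515 and 372 units in AD + OPP livers and 495, 506, 680.2 and 559.6 units in AD + DW livers (−0.22, SE 0.19). Mcm4 had 147, 139 and 108 units in AD + OPP livers and 131, 100.3, 219 and 168 units in AD + DW livers (−0.19, SE 0.27). All of these overlapped between the groups.

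The higher genes in the liver were Cdc25b, with 108, 139.6 and 118 units in AD + OPP livers and 132, 89.3, 95.4 and 120.5 units in AD + DW livers (0.17, SE 0.18), and Cdk4, with 78.6, 140.0 and 120.3 units in AD + OPP livers and 101, 86.6, 106 and 127 units in AD + DW livers (0.08, SE 0.22). Of the other pathway genes, 6 other replication genes had a median of −0.18, with Dctpp1, which cleans up the nucleotide pool, at −0.55 (SE 0.21) and Mcm10, a replication initiation factor, at −1.09 (SE 0.57). The 2 other mitosis genes were Spc24 (−0.44) and Zwint (0.26), both of the kinetochore. Of 8 brakes 4 were higher, with Btg1 at 0.59 (SE 0.27) and Ccng1 at −0.34 (SE 0.20), and the 2 transcription factors were Tfdp2 (−0.27) and E2f6 (−0.01).

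Marker levels in the liver varied within the groups. Of 13 neutrophil precursor markers with a probe, 3 were tested in the liver, Lcn2 and S100a9 among them. Their summed signal was 1107 to 60234 units in AD + OPP livers and 614 to 55409 units in AD + DW livers. It stands for these 3 genes and not for the whole list, and Ms4a3 and Mmp8 were detected on no liver array. The summed signal of 5 red cell precursor markers was 13904 to 35508 units in AD + OPP livers and 19051 to 62103 units in AD + DW livers. Epb42, Gata1, Rhag, Ermap and Car2 were on no array. Zap70, the 1 T cell marker tested, had 109 ± 22.3 units in AD + OPP (SD, n = 3) and 177 ± 14.0 units in AD + DW livers (SD, n = 4), without overlap. Of 9 B cell markers 8 were detected on no liver array. The neutrophil sum was high in AD + OPP replicates 1 and 2 (60234 and 57761 units), which had 125 and 137 units of Cenpa, and in AD + DW replicate 4 (55409 units), which had 207 units. The part of these markers in the Cenpa result was not tested.

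In the heart 7 genes were tested, and 5 were lower with OPP and 2 higher (median −0.14, against 0.01 for all 6580 probes). None passed in limma (0.0% of all probes), 0 of 7 had an unadjusted p under 0.05, against 3.63% of all probes, and the groups overlapped for all 7, whereas 7.71% of all probes did not overlap (4.16% above and 3.54% below). Cenpa had 657, 672 and 943 units in AD + OPP hearts and 1211, 679.7 and 866 units in AD + DW hearts (−0.26, SE 0.24). Ccnd1, at its highest in this organ, had 524, 494 and 484 units in AD + OPP hearts and 646, 503 and 452 units in AD + DW hearts (−0.08, SE 0.16). Ccnd2 had 187, 230.4 and 164 units in AD + OPP hearts and 218, 428 and 174 units in AD + DW hearts (−0.40, SE 0.32). For Ccnd2 and for Cenpa 1 AD + DW array lay above all other heart arrays.

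Pcna had 601, 626 and 579.8 units in AD + OPP hearts and 579, 733 and 693 units in AD + DW hearts (−0.14, SE 0.14), and Stmn1 had 166, 172 and 249.6 units in AD + OPP hearts and 234, 229.6 and 179 units in AD + DW hearts (−0.14, SE 0.20). Mcm4 had 247, 269 and 268 units in AD + OPP hearts and 219, 267 and 255 units in AD + DW hearts (0.09, SE 0.13). Mcm7 had 63.6, 110.4 and 82.9 units in AD + OPP hearts and 41.4, 111 and 91.5 units in AD + DW hearts (0.16, SE 0.37). The adjusted p of all 7 was 0.999.

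Among the other pathway genes of the heart, 15 replication genes had a median of 0.01, with Fen1, a flap nuclease, at 107 ± 18.5 units in AD + OPP and 75.7 ± 12.3 units in AD + DW hearts (SD, n = 3 each) without overlap, and Orc6 at 0.35 (SE 0.22). Of 4 mitosis genes Wee1, the kinase that holds CDK1 inactive, had −0.51 (SE 0.23) and Pttg1 (securin) −0.28 (SE 0.14). Of 15 brakes 7 were higher and 8 lower, with Tob2 at −0.57 (SE 0.20) and Cdkn1c, the inhibitor p57, at −0.45 (SE 0.18), and the 2 transcription factors were E2f6 (−0.13) and Tfdp2 (−0.34). The summed signal of the 5 neutrophil precursor markers tested, S100a8 and Lcn2 among them, was 5719.5 to 22448 units in AD + OPP hearts. In AD + DW hearts it was 311 to 14039 units, with the highest value in replicate 2. Mpo, Elane, Prtn3, Ctsg and Ms4a3 were detected on no heart array.

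**Figure D5:**
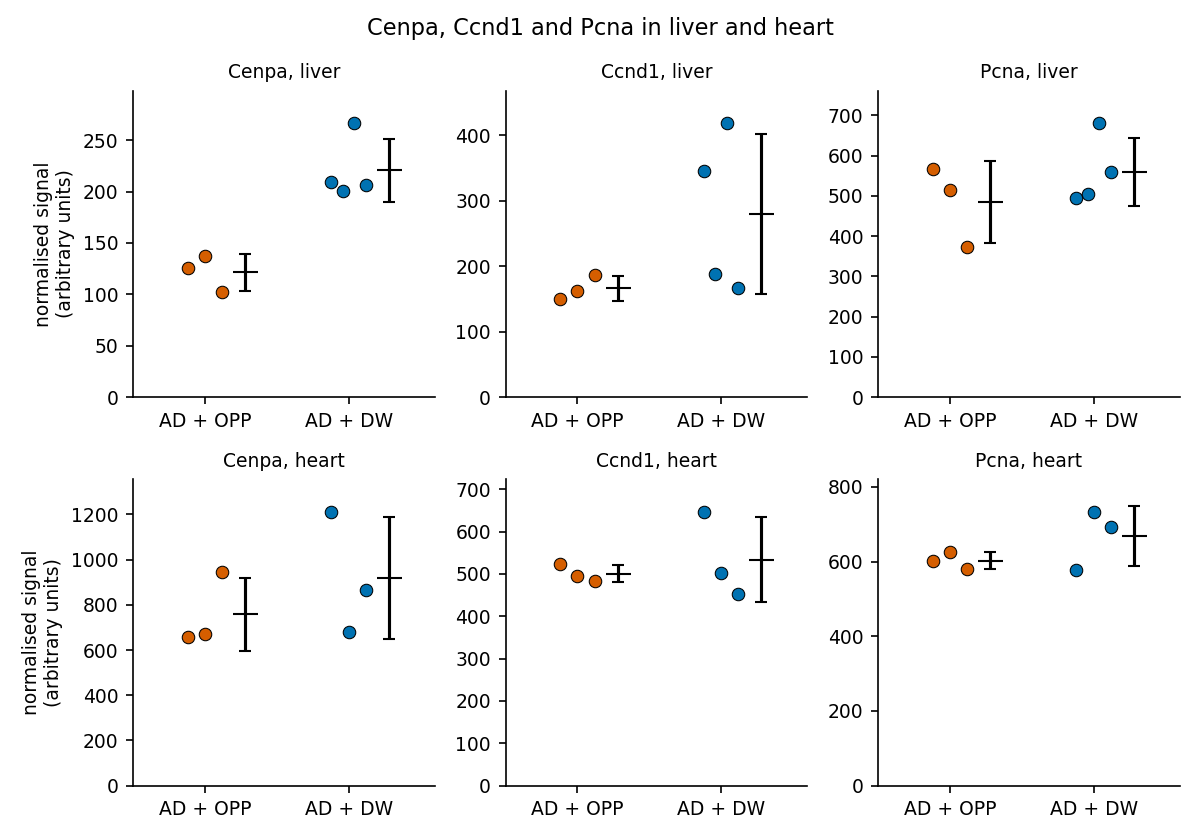
Normalised signal in arbitrary units of Cenpa, Ccnd1 and Pcna on each liver (top) and heart (bottom) array, AD + OPP left and AD + DW right, with the mean and SD of 3 or 4 arrays. Cenpa in the liver is the panel in which the groups do not overlap, at 102 to 137 units with OPP and 200.2 to 266 units with distilled water.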

How the data were processed

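RNA of liver, spleen and heart was hybridised to Illumina mouse BeadChips. The authors deposited, for each array, an unnormalised and a normalised intensity table and a detection p-value per probe, made in BeadStudio 1.5.1.3 per the labels. The normalisation had been done within each organ. The unnormalised intensities were not background-subtracted, which makes differences between organs smaller, so those contrasts are also given after neqc. All value columns were matched to samples (0 were not). Probe names came from the platform annotation with updated symbols, and the probe of Aurkb was named through a table of the paper. The members and all gene lists were chosen with earlier results of these data known.

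Normalised intensities were floored at 10 and taken to log2, and a probe was tested where it was detected (p-value under 0.01) on every array of a group. Groups were compared in limma 3.58.1 (R 4.3.3, statmod 1.5.0) over all tested probes of the organ, with Benjamini-Hochberg adjustment and a threshold of 0.05. Organ contrasts and interactions were fitted on 19 arrays after quantile normalisation of the unnormalised signals. All adjusted p-values in the text come from limma. The error model with which the authors tested the arrays was not repeated. The t-test that the methods name for other data was an alternative. Other alternatives changed the floor, the detection filter, the normalisation, the variance model, the array weights, the replicate block and single arrays. Scripts were tested on simulated data. A lower bound sets the mean of the bright organ against, per array of the other, the higher of the lowest detected signal and the probe's own.

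Named with all values were the 8 members with the smallest p in an organ and 10 genes chosen by role. For organ contrasts they were the 8 largest differences and the exceptions, and for other lists the 2 smallest p. Figures were drawn with matplotlib 3.10.9. The number of arrays limits the precision. The labels give neither mouse nor cage, so cage and OPP cannot be told apart.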

Additional observations from a re-analysis of the deposited data

Results flagged for a closer look

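Of 7 groups of values tested for a sample far from the others, 1 held such a sample. Cenpa in AD + DW livers was 266 units in replicate 3, against 209, 200.2 and 207 units in the other replicates. Chance flags about 1 in 20 groups. Without that array the log2 fold change of Cenpa in the liver was −0.77 (adjusted p = 0.847 in limma, within 0.209 to 0.911 over the 19 alternatives), against −0.86 with it.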

How the results depend on the processing

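In the spleen the count of all probes called (0) was 101 with a floor of 50, 5 without a detection filter, 52 with detection on every array, 197 after quantile normalisation, 222 with trend and robust fitting, 141 with array weights and 254 with all 19 arrays in 1 fit, and 0 to 168 when single arrays were left out (168 when this was AD + DW replicate 2, and 3 when it was AD + OPP replicate 2). The count of cell division probes called (0) was 1 (Ccnd1) with a floor of 50, with detection on every array, after quantile normalisation, with trend and robust fitting and with array weights, 2 (Ccnd1 lower and Bub1b higher) with all 19 arrays in 1 fit, and 0 to 1 with single arrays left out. In the heart 3 probes were called without a detection filter, and none was a cell division probe. With detection required on every array of both organs, 5, 6 and 4 cell division probes differed between spleen and liver, spleen and heart, and liver and heart, because 6, 6 and 4 were tested. With no detection filter, chosen after seeing the data, they were 44, 46 and 14 of 63. Leaving out single arrays gave 39 to 41, 39 to 41 and 9 to 12, and 0 to 4, 0 to 2 and 0 for the differences of the OPP effect.

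Median scaling moved the median of all spleen probes to 0.24, and 38 of 40 cell division probes were then higher. It turned the direction in the spleen of Pcna (0.08), Cdc25b (0.03), Cdk1 (0.23) and Ccnd2 (0.19), and in the liver of Cdk4 (0.0). Leaving out single arrays turned Mcm2 (−0.05 to 0.29), Mcm5 (−0.03 to 0.27), Ccnd2 (−0.34 to 0.20) and Ccnd3 (−0.01 to 0.55) in the spleen, Cdk4 (−0.10 to 0.32) in the liver, and Ccnd1 (−0.19 to 0.07) and Mcm7 (−0.27 to 0.44) in the heart. The cause was not tested. With single arrays left out, Mcm4 reached 0.0 in the liver (−0.38 to 0.0) and in the heart (0.0 to 0.15). The remaining named members kept their direction in all alternatives run.

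Replicate numbers did not pair the samples, since same-numbered arrays correlated between −0.397 and 0.189. With the replicate number as a block, 0 probes were called in each organ, and Ccnd1 in the spleen had an adjusted p of 0.112 in limma. With 3 or 4 arrays a group, and most cell division probes below detection in liver and heart, smaller changes were not detectable there.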
